A study of Mus musculus with 18 samples.

Results

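The comparison described here sets bone-marrow-derived macrophages of BAFF KO mice against those of WT mice after LPS, across genes and pathways. BAFF KO macrophages given lipopolysaccharide (LPS, 10 ng/ml for 4 h) were represented by libraries 17 and 18, and WT macrophages given the same LPS by libraries 14 and 15. The unstimulated macrophages, used here as values only, were library 16 for BAFF KO and library 13 for WT. APRIL KO macrophages, which lack a related cytokine, had libraries 20 and 21 with LPS and library 19 without. All carry the strain label C57BL/6J and a label naming preterm birth at gestation day 16. No label gives age or donor. Libraries were put in these groups by their labels alone. It took 8 of the 18 deposited columns, which are 4 of 9 libraries because each library has 2 columns, and these were averaged. Of 11164 listed genes, 9934 had a mean of at least 1 RPKM (reads per kilobase of gene, scaled to the number of mapped reads) in at least 1 of the 6 groups and were tested.

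LPS, a component of the outer membrane of Gram-negative bacteria, is bound by CD14 and MD-2 and sensed by Toll-like receptor 4 on macrophages. MyD88 and TRIF then carry the signal to NF-kB, to the MAP kinases that drive AP-1, and to interferon regulatory factors, which together switch on cytokine, chemokine and interferon-stimulated genes. BAFF (gene Tnfsf13b) is a tumour necrosis factor family ligand that myeloid cells secrete and on which B cells depend for survival, and its receptors can signal to NF-kB, mainly by the noncanonical route.

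The 4 LPS libraries held 5121833 to 6020780 reads in listed genes, so depth differed little between groups. The 2 libraries of a group differed by a median of 0.15 (BAFF KO) and 0.153 (WT) on the log2 scale over tested genes. The labels do not say whether libraries of a group came from separate mice or cultures. A p-value here sets a difference against the spread between libraries of a group, and that spread may be only technical. It was pooled over the LPS groups of WT, BAFF KO and APRIL KO and moderated across genes. All 10 macrophage markers were listed, with summed levels of 5420 and 5416 RPKM in BAFF KO and 4882 and 5142 RPKM in WT. Single markers differed in the test described below: 2 of the 10 were higher in BAFF KO (Mertk and Marco) and 2 lower (Fcgr1 and Cd14). The gene of the F4/80 antigen, Adgre1, stood at 484 and 432 RPKM in BAFF KO and 508 and 504 RPKM in WT. The deleted gene, Tnfsf13b, was not analysed here, and the genotype labels of the BAFF KO libraries therefore went without a check of their target.

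Of the 9934 genes tested, 828 (8.34%) differed at a Benjamini-Hochberg adjusted p below 0.05 in limma's moderated test, and these are the genes called below; 2508 had an unadjusted p below 0.05. In BAFF KO 396 (3.99%) were higher and 432 (4.35%) lower. Log2 differences are BAFF KO minus WT on the log2(RPKM + 1) scale, which understates changes of low genes. In bulk RNA, fewer cells of a type and less RNA per cell cannot be told apart. The lower genes reached further: 124 were lower by at least 2-fold and 49 higher. The 124 hold 16 of the skeletal muscle list and 6 further muscle genes (Myh3, Tnnt2, Myl4, Mybph, Myog and Mb, which are also 6 of the 15 largest falls), and 102 are neither, while the 49 hold 0 of these. The 6 were noticed among the 15 largest falls. No wider search for muscle genes was made, so the 102 and the 49 may hold others. The median difference was -0.73 over the genes called lower, 0.709 over those called higher and 0.023 over all genes tested. All 4 BAFF KO columns lay beyond all 4 WT columns for 421 of the genes called lower, 390 of those called higher and 2546 of all tested. Leaving out library 14, 15, 17 or 18 gave 311, 333, 228 and 215 calls, and 98 lower and 52 higher genes were called in each of these 4 fits.

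**Figure D1:**
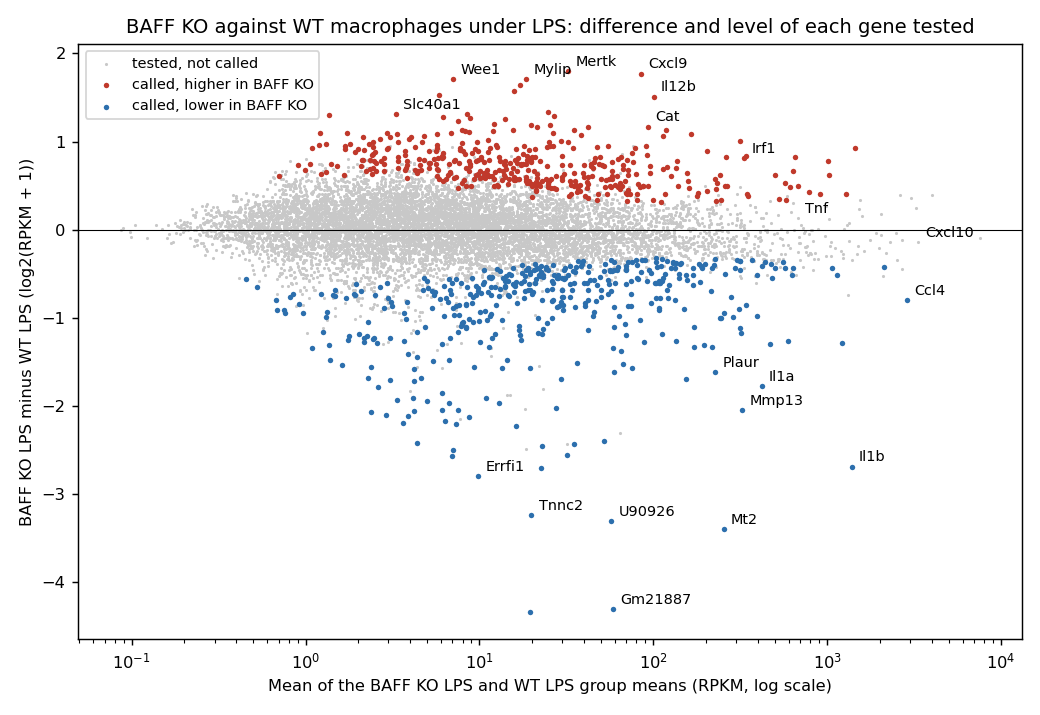
Each point is a gene tested. The horizontal axis is the mean of the BAFF KO LPS and WT LPS group means (RPKM, log scale) and the vertical axis the difference, BAFF KO minus WT, on the log2(RPKM + 1) scale. Red points (396) were called higher in BAFF KO, blue points (432) were called lower, and grey points were not called. Il1b and Mt2 lie far below 0 at high levels, while Tnf and Cxcl10 lie near 0.

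The inflammatory cytokine genes split. The interleukin-1 genes were lower in BAFF KO. Il1b, which encodes the fever-inducing cytokine interleukin-1 beta, had 367, 379, 374 and 364 RPKM in the 4 BAFF KO columns, against 2267, 2330, 2466 and 2519 RPKM in the 4 WT columns. The groups stand far apart and the columns of each lie close together. The difference was -2.69 (95% interval -2.89 to -2.48, adjusted p = 2.4e-05), with BAFF KO at 0.155 times the WT mean. Il1a, the gene of interleukin-1 alpha, was lower by less (-1.78, interval -2.05 to -1.50, adjusted p = 0.00048). Il1rn, which encodes the antagonist that blocks the interleukin-1 receptor, had 237 and 250.3 RPKM in BAFF KO and 471 and 409 RPKM in WT (-0.85, adjusted p = 0.0027). These 3 were the genes called of 12 tested in the interleukin-1 family, with 5 called without library 15. Il18, the family member matured by the same protease as interleukin-1 beta, stood at 89.5 and 70.6 RPKM in BAFF KO and 68.3 and 91.2 RPKM in WT, and the groups overlapped (0.01, interval -0.36 to 0.38). Il1rn, Il18 and, below, Il23a were named after their values were seen.

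The interleukin-12 subunits went the other way. Il12b, which encodes the p40 subunit of interleukins 12 and 23, had 151, 157, 143 and 145 RPKM in the BAFF KO columns, against 54.8, 49, 54.8 and 48.4 RPKM in the WT columns (1.51, interval 1.25 to 1.76, adjusted p = 0.00054). Il12a, the p35 partner of p40 in interleukin-12, had 31 and 28.5 RPKM in BAFF KO and 9.46 and 17 RPKM in WT (1.16, adjusted p = 0.026). Its call ended without library 14, 17 or 18 (adjusted p up to 0.13). Il23a, the p19 partner of p40 in interleukin-23, was read with 18 reads in BAFF KO and 44 in WT and was not called (-0.77, interval -1.41 to -0.12, adjusted p = 0.13). Thus 2 of 5 interleukin-12 family genes were higher and none of the 5 was lower.

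Among other cytokines 4 of 14 were lower and none of the 14 was higher, with 3 lower without library 14 or 15 and 2 without library 17 or 18. Il10, the gene of the anti-inflammatory interleukin-10, had 69.3 and 64.9 RPKM in BAFF KO and 172 and 139.5 RPKM in WT (-1.19, adjusted p = 0.0018). Il19, of the interleukin-10 family, had 4 reads in BAFF KO and 82 reads in WT (-2.42, adjusted p = 0.00057). Several hallmark LPS genes, chosen after their values were seen, were not called. Tnf had 714 and 702 RPKM in BAFF KO and 623 and 673 RPKM in WT (adjusted p = 0.44). Nos2, the inducible nitric oxide synthase, had 312 and 329 RPKM in BAFF KO and 312 and 308 RPKM in WT (adjusted p = 0.85). Il6 had 357 and 270.1 RPKM in BAFF KO and 411 and 493 RPKM in WT (adjusted p = 0.065).

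**Figure D2:**
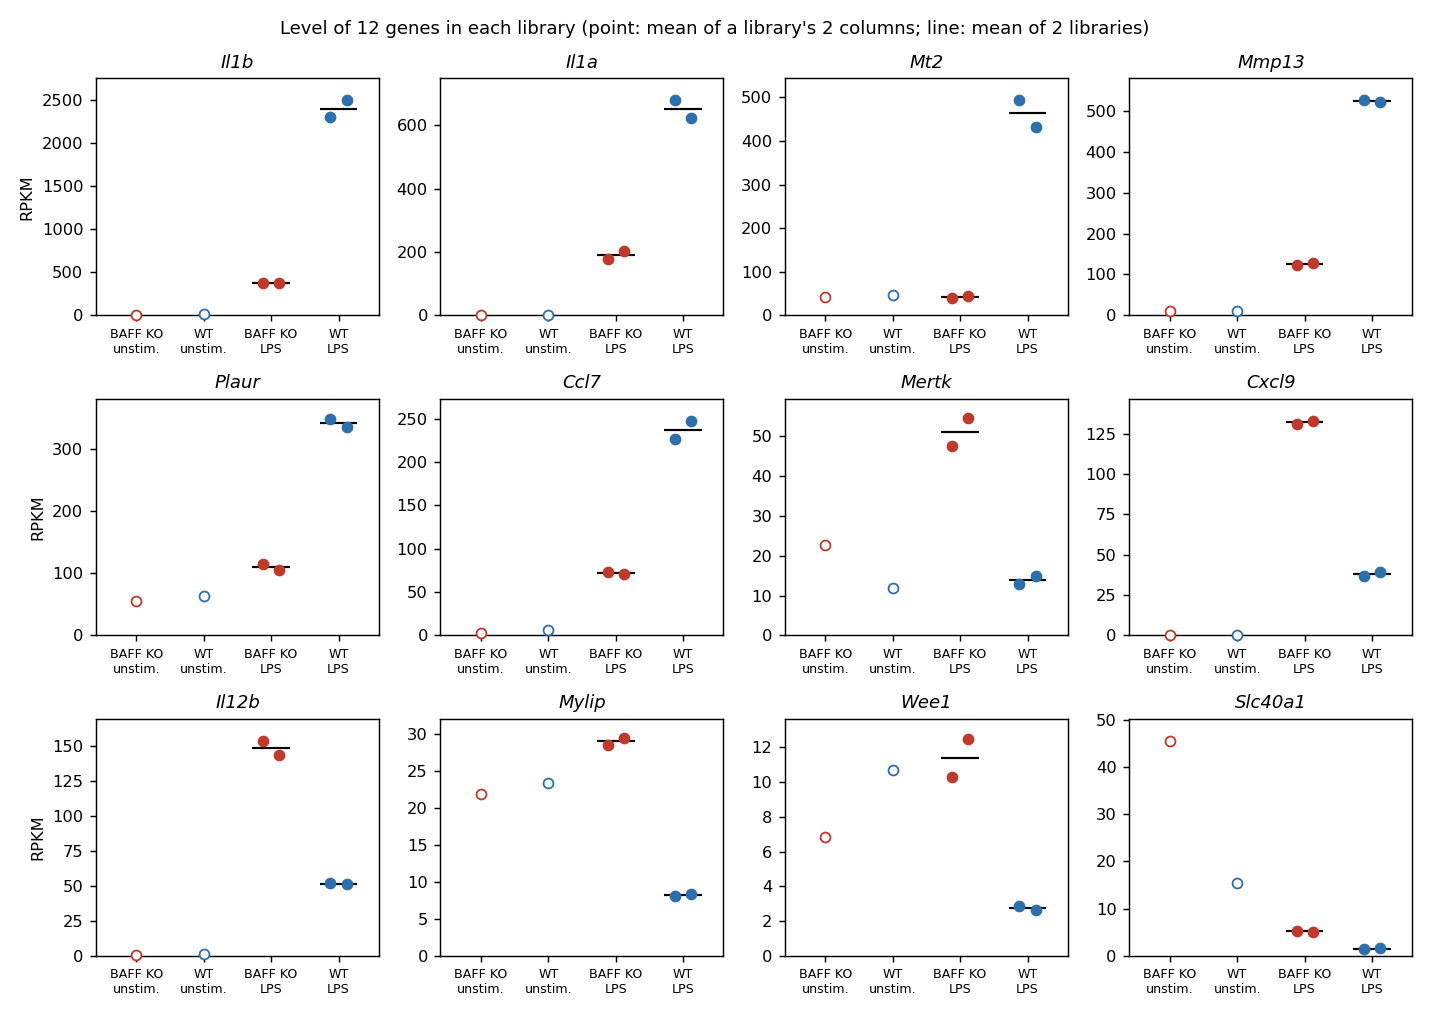
Level in RPKM of 12 genes in each library, with 1 point per library (the mean of its 2 columns) and a line at the mean of 2 libraries. Open points are unstimulated and filled points had LPS, red for BAFF KO and blue for WT. With LPS, Il1b, Il1a, Mt2, Mmp13, Plaur and Ccl7 are lower in both BAFF KO libraries and the other 6 genes are higher. The BAFF KO level of Mt2 with LPS (40.4 and 45.3 RPKM) lies beside that of unstimulated BAFF KO cells (41 RPKM).

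CC chemokines, which draw monocytes, T cells and dendritic cells into tissue, were lower as a group. Of 11 tested, 6 were called lower and none of the 11 higher, and the median difference was -0.80, beside 0.023 over all genes. Ccl7 (MCP-3), a ligand of the monocyte receptor CCR2, had 73.6 and 70.7 RPKM in BAFF KO and 227 and 248 RPKM in WT (-1.70, adjusted p = 0.00066). Ccl2 (MCP-1), the main CCR2 ligand, had 123 RPKM in both BAFF KO libraries and 303 and 318 RPKM in WT (-1.33, adjusted p = 0.0018). Without LPS it had 3.68 RPKM in BAFF KO and 9.89 RPKM in WT (1 library each). Its rise with LPS was 4.73 in BAFF KO and 4.84 in WT on the log2 scale. In absolute level the largest gap was in Ccl4 (MIP-1 beta), with 2261 and 1963 RPKM in BAFF KO and 3481 and 3863 RPKM in WT (-0.80, adjusted p = 0.0054). Ccl9, Ccl17 and Ccl22 were the other called members (-0.98, -1.27 and -0.82), Ccl17 on 1 read in BAFF KO and 16 in WT. Ccl5 (RANTES) was not called, at 2013 and 1736 RPKM in BAFF KO and 1832 and 2021 RPKM in WT (-0.04, interval -0.28 to 0.20). Ccl5, Ccl9 and Ccl22 were named after their values were seen. With 1 library left out the list had 4 calls without library 14, 17 or 18 and 5 without library 15.

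Of 7 CXC chemokines that attract neutrophils 2 were lower. Cxcl2 (MIP-2) had 333 and 368 RPKM in BAFF KO and 909 and 782 RPKM in WT (-1.26, adjusted p = 0.003), and Cxcl3 had 30 and 27.9 RPKM in BAFF KO and 90.8 and 89.9 RPKM in WT (-1.61, adjusted p = 0.004). These are closely related genes, and how reads were shared among relatives is not given. The interferon-inducible trio that binds CXCR3 on T cells was uneven. Cxcl9 had 135, 127, 132 and 133 RPKM in the BAFF KO columns and 38.6, 34.8, 36.8 and 41.8 RPKM in the WT columns (1.77, interval 1.52 to 2.01, adjusted p = 0.00028). Cxcl10 had 3260 and 3055 RPKM in BAFF KO and 3481 and 3480 RPKM in WT (-0.14, adjusted p = 0.33). Cxcl11, named after its values were seen, was not called either (-0.23, interval -0.58 to 0.12).

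Genes of growth factors and tissue remodelling included several that were lower. Of 11 genes of growth factors and their regulators 5 were lower and none of the 11 higher. Errfi1, an inhibitor of the EGF receptor, had 1.25 and 2.18 RPKM in BAFF KO and 20.7 and 15.1 RPKM in WT (-2.80, interval -3.32 to -2.28, adjusted p = 0.00088). Edn1, the gene of the vasoconstrictor endothelin-1, had 18.7 and 18.4 RPKM in BAFF KO and 52.2 and 56.8 RPKM in WT (-1.51, adjusted p = 0.00061). Hbegf, an EGF receptor ligand, and Pdgfa and Pdgfb, the platelet-derived growth factor chains, were lower too (-1.48, -1.48 and -0.52, named after their values were seen). The calls of Hbegf ended without library 17 or 18 (adjusted p up to 0.07) and those of Pdgfb without any 1 of the 4 libraries (up to 0.22).

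Mmp13, which encodes collagenase 3, had 124 and 128 RPKM in BAFF KO and 527 and 523 RPKM in WT (-2.05, interval -2.23 to -1.88, adjusted p = 2.4e-05). It was the 1 member lower among 20 matrix metalloproteinases, ADAM proteases and inhibitors (3 lower without library 15). The protease genes Adam10 and Adam17, which shed membrane proteins, were higher (0.53 and 0.34). Adam10 was not called without library 15, 17 or 18, and Adam17 was not called without any 1 of the 4. In plasminogen activation and coagulation 5 of 14 were lower and 2 higher, with 3 lower without library 14 or 17, 2 without library 18 and 5 without library 15. Plaur, the urokinase receptor that focuses plasmin formation on the cell surface, had 115 and 106 RPKM in BAFF KO and 348 and 336 RPKM in WT (-1.62, adjusted p = 0.00011). S100a10, part of the cell-surface plasminogen receptor with annexin A2, had 91.3 and 91.8 RPKM in BAFF KO and 149 and 148 RPKM in WT (-0.69, adjusted p = 0.0025; named after its values were seen). Serpinb2, the inhibitor PAI-2, was at 1.04 and 2.27 RPKM in BAFF KO and 14.4 and 7.75 RPKM in WT, and its call ended without library 14, 17 or 18 (adjusted p up to 0.12).

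Metallothioneins are small cysteine-rich proteins that bind zinc and copper, and both measured here were lower in BAFF KO. Mt2 had 40.4, 40.5, 41.9 and 48.8 RPKM in the BAFF KO columns, against 499, 490.5, 433 and 433 RPKM in the WT columns (-3.40, interval -3.75 to -3.06, adjusted p = 4.1e-05). Mt1, which lies beside it on chromosome 8 and may share reads with it, had 34.8 and 33 RPKM in BAFF KO and 90 and 109 RPKM in WT (-1.52, adjusted p = 0.00053; named after its values were seen). Slc39a14, which encodes the zinc importer ZIP14, had 0.427 and 0.697 RPKM in BAFF KO and 4.66 and 3.41 RPKM in WT (-1.68, adjusted p = 0.0043). The zinc exporter gene Slc30a1 was higher (0.62, adjusted p = 0.04) but was not called without any 1 of the 4 libraries. The other 9 of 13 metallothionein and zinc genes were not called. With 1 library left out, each of the 4 fits called 3 genes of the list lower.

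The promoters of some of these genes are shown because they hold, or lack, the letters of binding motifs of factors that LPS signalling activates. The stretches are the 150 bases directly before the RefSeq start (GRCm38.p6, the assembly of mm10), on the gene's strand, 5′ to 3′. Capitals mark matches on either strand to the motifs of NF-kB (GGANNTTCC), AP-1 (TGANTCA), CRE (TGACGTCA), ISRE (GAAANNGAA), GAS (TTCNNNGAA), the metal response element MRE (TGCNCNC), C/EBP (TTNNGNAA) and the E-box (CACGTG). Mt2, Mmp13, Plaur and Il1b were lower in BAFF KO, and Cxcl9 and Il12b higher.
Mt2, chr8:94172468-94172617, plus strand: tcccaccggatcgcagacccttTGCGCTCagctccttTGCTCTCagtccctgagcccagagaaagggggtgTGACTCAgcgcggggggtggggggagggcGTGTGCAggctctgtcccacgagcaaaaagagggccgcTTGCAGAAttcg
Mmp13, chr9:7272364-7272513, plus strand: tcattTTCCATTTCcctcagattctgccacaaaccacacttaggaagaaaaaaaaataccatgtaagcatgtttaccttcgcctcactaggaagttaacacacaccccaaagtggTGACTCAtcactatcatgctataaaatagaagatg
Plaur, chr7:24462333-24462482, plus strand: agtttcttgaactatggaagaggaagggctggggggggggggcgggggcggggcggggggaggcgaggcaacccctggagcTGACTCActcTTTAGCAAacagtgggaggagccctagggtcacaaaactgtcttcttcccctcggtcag
Il1b, chr2:129371140-129371289, minus strand: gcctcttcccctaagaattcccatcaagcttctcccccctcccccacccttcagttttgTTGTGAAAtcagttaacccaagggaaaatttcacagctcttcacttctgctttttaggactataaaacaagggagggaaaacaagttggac
Cxcl9, chr5:92328080-92328229, minus strand: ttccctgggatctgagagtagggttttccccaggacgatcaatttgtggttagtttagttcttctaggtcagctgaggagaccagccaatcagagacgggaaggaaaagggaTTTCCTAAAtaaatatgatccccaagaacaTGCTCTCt
Il12b, chr11:44399913-44400062, plus strand: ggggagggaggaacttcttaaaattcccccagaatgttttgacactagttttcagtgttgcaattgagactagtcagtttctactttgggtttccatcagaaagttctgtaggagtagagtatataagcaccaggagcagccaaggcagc
An AP-1 match begins 79 bases before the start in Mt2, 35 in Mmp13 and 69 in Plaur, and Mt2 also has 3 MRE matches and 1 C/EBP match. Mmp13 also has 1 ISRE match and Plaur 1 C/EBP match. Il1b has 1 C/EBP match in this stretch, Cxcl9 has 2 overlapping C/EBP matches and 1 MRE match, and the stretch of Il12b has no match to these letters. Each factor was sought by 1 string of letters only, so a stretch without a match may still hold other forms of its sites.

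Over whole promoter windows of 300 bases (250 before and 50 after the start), which RefSeq gave for 7717 of the 9934 genes tested, an AP-1 match was held by 14 of 96 genes called lower by at least 2-fold (14.6%). Over all 335 genes called lower with a window it was held by 24 (7.16%). It was held by 2 of 42 genes called higher by at least 2-fold (4.76%) and by 390 of all 7717 (5.05%). A C/EBP match was held by 47.9% of the genes lower by at least 2-fold, 38.1% of those higher by at least 2-fold and 32.4% of all. NF-kB letters were held by 6.25% of the first set, 7.14% of the second and 4.92% of all, and MRE letters, which are short, by 62.5%, 52.4% and 58.8%. A match may overlap another, is a description of the letters and is neither a bound site nor a cause.

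Iron and antioxidant genes were among those higher in BAFF KO. Of the 18 iron and heme genes in the list 5 were higher and none of the 18 lower. Alas1, which starts heme synthesis and is outside the list, was lower (-1.34, adjusted p = 0.00075; named after its values were seen). Slc40a1, which encodes the iron exporter ferroportin, had 5.3 and 5.01 RPKM in BAFF KO and 1.4 and 1.58 RPKM in WT (1.31, adjusted p = 0.0019). Tfrc, the transferrin receptor that brings iron in, had 19 and 23.8 RPKM in BAFF KO and 10.8 and 10.9 RPKM in WT (0.91, adjusted p = 0.016). Ncoa4, the receptor for ferritin breakdown, Spic, a factor of iron-recycling macrophages, and the heme oxygenase gene Hmox1 were the other 3 (0.83, 0.79 and 0.44, named after their values were seen). The list had 1 call without library 14 or 18, 2 without library 17 and 3 without library 15, and Slc40a1 was called in all 4 fits.

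Of 30 antioxidant and detoxification genes, many of them targets of NRF2, 10 were higher and none of the 30 lower, with a median of 0.21. Cat, the gene of catalase, had 125 and 136 RPKM in BAFF KO and 57.9 and 56.4 RPKM in WT (1.17, interval 0.98 to 1.37, adjusted p = 0.00054). Gsta3, a glutathione S-transferase gene, had 14.8 and 10.5 RPKM in BAFF KO and 4.31 and 4.59 RPKM in WT (1.31, adjusted p = 0.0077). Gstm1, of the same enzyme superfamily, had 273 and 252 RPKM in BAFF KO and 139.8 and 143 RPKM in WT (0.89). Gclm, the modifier subunit of the enzyme that limits glutathione synthesis, had 24.8 and 26.2 RPKM in BAFF KO and 13.1 and 13.3 RPKM in WT (0.90). Prdx1, an abundant peroxiredoxin gene, stood at 855 and 818 RPKM in BAFF KO and 483 and 462 RPKM in WT (0.82, adjusted p = 0.026). The columns of WT library 15 lay far apart, at 729 and 195 RPKM, while those of library 14 had 508 and 459 RPKM. The closeness of the WT values of Prdx1 therefore comes from averaging columns. The lowest BAFF KO column had 760.1 RPKM. Gstm1 and Gclm were named after their values were seen. The list had 3 calls without library 14 or 17 and 4 without library 15 or 18. Cat, Gstm1 and Gclm were called in all 4 of these fits, while Prdx1 was not called without any 1 library and Gsta3 not without library 14 or 17. The median of this list was also above 0 in unstimulated cells, at 0.39 for BAFF KO minus WT (1 library each), and that of the iron list was 0.41.

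**Figure D3:**
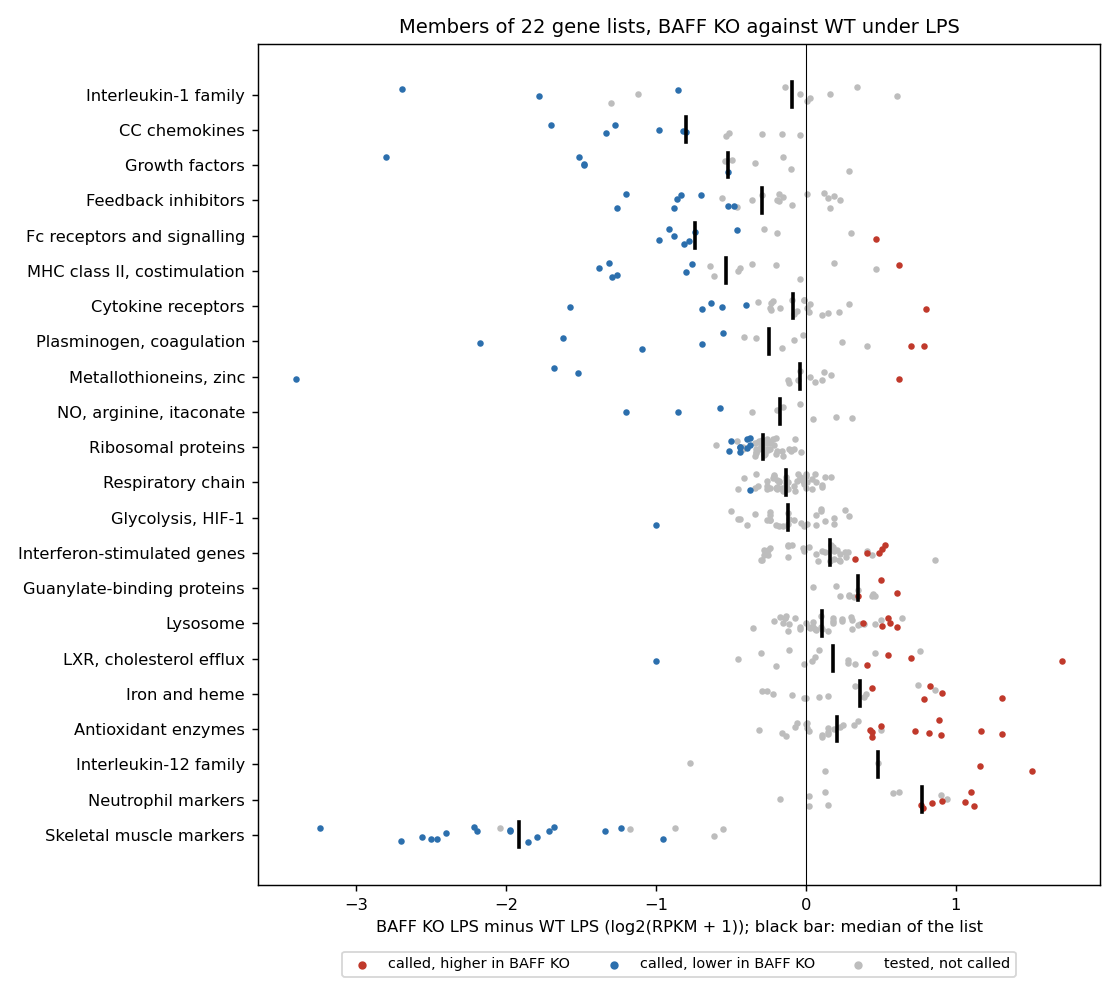
Each point is a tested member of 1 of 22 gene lists, placed on the horizontal axis by its difference, BAFF KO minus WT with LPS, on the log2(RPKM + 1) scale. Red and blue points were called higher and lower in BAFF KO, grey points were not called, and the black bar is the median of the list. CC chemokines (-0.80), Fc receptor genes (-0.74) and skeletal muscle markers (-1.91) have medians well below 0, and neutrophil markers (0.78) well above.

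Receptors on the macrophage surface differed in both directions. Of 11 genes of Fc receptors and their signalling chain, through which macrophages take up antibody-coated particles, 7 were lower and 1 higher, with a median of -0.74. Fcgr1, the high-affinity receptor for IgG, had 77.4 and 72 RPKM in BAFF KO and 139 and 143 RPKM in WT (-0.91, adjusted p = 0.0014). Fcgr3 had 30 and 29.4 RPKM in BAFF KO and 58.3 and 61.2 RPKM in WT (-0.98, adjusted p = 0.0035). The kinase gene Lyn, which phosphorylates these receptors, had 79.4 and 72.2 RPKM in BAFF KO and 131 RPKM in both WT libraries (-0.78, adjusted p = 0.0024). The inhibitory receptor gene Fcgr2b was lower as well (-0.88), like Fcgr4 (-0.81) and Fcrls (-0.74). The 1 gene called higher was Inpp5d, the phosphatase SHIP1 that dampens this signalling (0.47, adjusted p = 0.037), which was not called without any 1 library. The shared gamma chain gene Fcer1g was not called (-0.28, interval -0.55 to -0.00). Lyn, Fcgr2b, Fcgr4, Fcrls and Fcer1g were named after their values were seen. The list had 3 lower calls without library 18, 5 without library 15 or 17 and 6 without library 14. Fcgr1, Fcgr3 and Lyn were called in each.

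MHC class II and costimulation genes, which present antigen to CD4+ T cells, had 6 of 16 lower and 1 higher. H2-Aa had 37.7 and 33.8 RPKM in BAFF KO and 81.7 and 109 RPKM in WT (-1.38, adjusted p = 0.0047). Cd74, the invariant chain, had 795 and 611 RPKM in BAFF KO and 1517 and 1922 RPKM in WT (-1.29, adjusted p = 0.0074). Cd274, the gene of PD-L1, was the 1 higher, at 267 and 319 RPKM in BAFF KO and 194 and 184 RPKM in WT (0.62, adjusted p = 0.017), and was not called without library 14, 15 or 18. Without library 18 the list had 0 calls in limma, while 1706 of 9930 genes had an unadjusted p below 0.05 in that fit, and the adjusted p of H2-Aa was 0.052 and that of Cd74 0.064. The list had 3 lower calls without library 15 or 17 and 5 without library 14. The class II genes also mark B cells and dendritic cells, whose lists had 1 of 5 and 0 of 4 members called. The B cell markers summed to 11.8 and 18 RPKM in BAFF KO and 24.4 and 27.5 RPKM in WT, with Pax5, Vpreb1, Vpreb3 and Igll1 not listed, and their part in the class II values was not tested.

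Of 24 cytokine receptor genes 5 were lower and 1 higher, with 3 lower without library 14 and 2 without library 15, 17 or 18. Il4ra, the interleukin-4 receptor chain, had 8.29 and 10.6 RPKM in BAFF KO and 31.6 and 27.9 RPKM in WT (-1.57, adjusted p = 0.0012). Ifnar1, a chain of the type I interferon receptor, had 21.7 and 23.6 RPKM in BAFF KO and 38.2 and 36 RPKM in WT (-0.69, adjusted p = 0.0069), and was not called without library 17 (adjusted p = 0.057). Among Toll-like receptor and LPS sensing genes 2 of 22 were lower and none of the 22 higher, beside 4.35% lower and 3.99% higher over all genes. The median of this list was 0.02, with 12 members above 0 and 10 below. Cd14, the LPS co-receptor, had 101 and 108 RPKM in BAFF KO and 226 and 169.8 RPKM in WT (-0.90, adjusted p = 0.0087; not called without library 17 or 18). Myd88 was slightly lower (-0.33, adjusted p = 0.046) and was not called without any 1 library. Tlr4, named after its values were seen, had 49 reads in BAFF KO and 46 reads in WT (-0.07, interval -0.44 to 0.30).

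Receptors for apoptotic cells and modified lipoproteins moved apart. Mertk, a receptor tyrosine kinase for apoptotic cells, had 48.6, 46.3, 52.7 and 56.3 RPKM in the BAFF KO columns and 12.6, 13.3, 16.7 and 13 RPKM in the WT columns (1.80, interval 1.53 to 2.08, adjusted p = 0.00048). Timd4, which binds phosphatidylserine on dying cells, had 5 reads in BAFF KO and 93 reads in WT (-2.07, adjusted p = 0.00053). Msr1, the class A scavenger receptor, had 51.8 and 50.8 RPKM in BAFF KO and 120 and 131 RPKM in WT (-1.27, adjusted p = 0.00053). Marco, of the same class, was higher at 143 and 97 RPKM in BAFF KO and 52.9 and 69.1 RPKM in WT (0.95, adjusted p = 0.031; not called without library 14, 15 or 17). In all, 2 of 24 genes of apoptotic cell uptake were higher and 1 lower, and 3 of 12 scavenger receptor genes were higher and 2 lower. The shares over all genes tested were 3.99% higher and 4.35% lower. With 1 library left out, the scavenger receptor list had 1 lower call in each of the 4 fits and 1 higher without library 17 or 18, and the apoptotic cell list 1 higher and 1 lower in each. Of 20 integrin and adhesion genes 3 were higher and none of the 20 lower, with 1 higher without library 14, 15, 17 or 18. Itga4, the alpha 4 integrin chain, had 33.6 and 37.5 RPKM in BAFF KO and 16 and 14 RPKM in WT (1.19, adjusted p = 0.0018), and its ligand gene Vcam1 had 72 and 74.2 RPKM in BAFF KO and 37.2 and 37.3 RPKM in WT (0.95, adjusted p = 0.01). The call of Vcam1 ended without any 1 of the 4 libraries (adjusted p up to 0.086).

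Among intracellular regulators, feedback inhibitors of inflammatory signalling had 8 of 23 lower and none of the 23 higher, with a median of -0.29. Ier3, an early-response gene, had 9.33 and 10.6 RPKM in BAFF KO and 26.5 and 21.9 RPKM in WT (-1.20, adjusted p = 0.0028). Tnip1, whose product works with A20 to restrain NF-kB, had 159 and 169.6 RPKM in BAFF KO and 284 and 253 RPKM in WT (-0.70, adjusted p = 0.0043), and its relative Tnip3 was lower too (-0.83). Dusp1, a phosphatase that switches off MAP kinases, stood at 18.3 and 20.2 RPKM in BAFF KO and 39.4 and 33.4 RPKM in WT (-0.88, not called without library 17). The classical NF-kB inhibitors did not pass the test: Nfkbia was at -0.19 (interval -0.42 to 0.04) and Tnfaip3, the gene of A20, at -0.15 (interval -0.49 to 0.20). Tnip1, Tnip3, Dusp1, Nfkbia and Tnfaip3 were named after their values were seen. With 1 library left out the list had 3 calls without library 17, 4 without library 14 or 18 and 6 without library 15.

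Of 22 NF-kB and I-kappa-B genes 3 were higher and 2 lower. The kinase subunit genes Ikbkb and Ikbkg were higher (0.55 and 0.61), and Bcl3 and Nfkb2, the p100 precursor of the noncanonical route, were lower (-0.69 and -0.36); each of these 4 lost its call without any 1 of the 4 libraries. The list had 1 call without library 14 and 0 in limma without library 15, 17 or 18, where 1919, 2153 and 1706 of all genes had an unadjusted p below 0.05. Among immediate early genes 4 of 19 were lower (3 without library 18 and 1 without library 14, 15 or 17), among them the AP-1 subunit gene Fos, with 3.74 and 6.03 RPKM in BAFF KO and 11.5 and 10.7 RPKM in WT (-1.07, adjusted p = 0.017; not called without library 14, 15 or 17). Cebpd, an LPS-induced C/EBP factor gene, was at 2.18 and 6.47 RPKM in BAFF KO and 15.4 and 19.5 RPKM in WT (-1.91, adjusted p = 0.018; not called without library 14 or 15). Id1, an inhibitor of helix-loop-helix factors, had 10 reads in BAFF KO and 74 reads in WT (-1.91, adjusted p = 0.0014).

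Interferon genes of the lists were higher or not called, with Ifnar1, above, lower among the receptors. Irf1, a factor that drives many interferon-gamma target genes, had 410.4 and 437 RPKM in BAFF KO and 242 and 239.8 RPKM in WT (0.81, interval 0.63 to 0.99, adjusted p = 0.0018), the only call among 8 interferon regulatory factor genes. Of 38 interferon-stimulated genes 5 were higher and none of the 38 lower, and of 13 guanylate-binding and immunity-related GTPase genes 3 were higher and none of the 13 lower. Ifi44 had 74.2 and 67.7 RPKM in BAFF KO and 44.3 and 55.1 RPKM in WT (0.51, adjusted p = 0.046), and Gbp2b had 765 and 825 RPKM in BAFF KO and 603 and 533 RPKM in WT (0.49, adjusted p = 0.021). Ifitm2, an interferon-induced gene outside the lists, named after its values were seen, was lower, at 105 and 88 RPKM in BAFF KO and 217 and 274 RPKM in WT (-1.33, adjusted p = 0.0019). The guanylate-binding list had 0 calls in limma without library 14, 15, 17 or 18, where 2202, 1919, 2153 and 1706 of all genes had an unadjusted p below 0.05, and 1 with the replicate block. The interferon-stimulated list had 3 calls without library 14, 1 without library 15 and 0 in limma without library 17 or 18, where 2153 of 9934 and 1706 of 9930 genes had an unadjusted p below 0.05. It also had 0 calls with the replicate block.

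Some genes of lipid and other metabolism were called. Mylip, which encodes a ubiquitin ligase induced by liver X receptors, had 28.5 and 29.4 RPKM in BAFF KO and 8.03 and 8.29 RPKM in WT (1.71, interval 1.48 to 1.94, adjusted p = 0.00028). Of 18 liver X receptor and cholesterol efflux genes 4 were higher and 1 lower, with 4 higher without library 14, 2 without library 17 and 1 without library 15 or 18. The lower one was Pltp, the phospholipid transfer protein, with 168 and 153 RPKM in BAFF KO and 315 and 326 RPKM in WT (-1.0, adjusted p = 0.0014). Maoa, the gene of monoamine oxidase A, had 24.4 and 28.4 RPKM in BAFF KO and 7.79 and 7.72 RPKM in WT (1.64, adjusted p = 0.0025). Without LPS it had 36.3 RPKM in BAFF KO and 11 RPKM in WT (1 library each). Odc1, which starts polyamine synthesis, had 43.4 and 40.6 RPKM in BAFF KO and 99.6 and 95.9 RPKM in WT (-1.20, adjusted p = 0.00048). Slc2a1, the glucose transporter GLUT1, had 13 and 15.6 RPKM in BAFF KO and 29 and 29.7 RPKM in WT (-1.0, adjusted p = 0.0039), and it was the only call among 30 glycolysis and HIF-1 genes. Sphk1, which makes sphingosine-1-phosphate, had 0.78 and 0.831 RPKM in BAFF KO and 6.51 and 5.33 RPKM in WT (-1.93, adjusted p = 0.0014). The respiratory chain (1 of 50 lower), the TCA cycle (1 of 25 higher) and cholesterol synthesis (1 of 23 higher) had a single call each. Over all genes tested, 3.99% were called higher and 4.35% lower. The prostaglandin pathway had 3 of 17 lower, and fewer in each fit without 1 library. Among them were Pla2g4a, the phospholipase that frees arachidonic acid (-1.09, adjusted p = 0.0046), and the cyclooxygenase-2 gene Ptgs2 (-0.80, not called without library 17 or 18). Without LPS, Ptgs2 had 0.349 RPKM in BAFF KO and 3.19 RPKM in WT (1 library each). Its rise with LPS was 6.18 in BAFF KO and 5.35 in WT on the log2 scale.

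Of 47 cell cycle genes tested 4 were higher and 3 lower, beside 3.99% higher and 4.35% lower over all genes. The median of this list was 0.08, and fewer of its genes were called in each fit without 1 library. Wee1, the kinase that holds CDK1 inactive before mitosis, had 10.3 and 12.5 RPKM in BAFF KO and 2.88 and 2.66 RPKM in WT (1.71, adjusted p = 0.0021), and Ccnd2, a cyclin of the G1 phase, had 4.91 and 4.83 RPKM in BAFF KO and 12.1 and 11.5 RPKM in WT (-1.12, adjusted p = 0.0052). Ribosomal protein genes had 9 of 54 lower and none of the 54 higher, with a median of -0.29 and a range of -0.60 to -0.03. The count was 0 in limma without library 14, 17 or 18, fits in which 2202, 2153 and 1706 of all genes had an unadjusted p below 0.05. It was 1 without library 15 and 1 with the replicate block. Other genes among the 15 largest rises were Arhgap22, a Rac GTPase-activating protein gene (1.57), Asap3, an Arf GTPase-activating protein gene (1.53), Chil1, a chitinase-like protein gene (1.34), and Osbpl3, an oxysterol-binding protein relative (1.25), with adjusted p of 0.0044, 0.0019, 0.0028 and 0.0032.

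Among the 15 largest falls were genes with no family in the lists. U90926, annotated as protein-coding on chromosome 5, had 9.45 and 9.83 RPKM in BAFF KO and 97.1 and 113 RPKM in WT (-3.31, interval -3.60 to -3.02, adjusted p = 2.4e-05). A further 3 lie at the end of the sex chromosomes, where X and Y pair and where near-identical copies of Mid1 sequence sit. Gm21887, at chrX:170009659-170019281 in mm10, had 4.96 and 4.35 RPKM in BAFF KO and 119 and 104 RPKM in WT (-4.31, adjusted p = 4.1e-05). Gm47283, at chrY:90784738-90816464, had 1.14 and 0.736 RPKM in BAFF KO and 39.3 and 36.8 RPKM in WT (-4.34, adjusted p = 4.1e-05). The pseudogene Mid1-ps1, at chrY:90753057-90763485, and Mid1 itself, which encodes a ubiquitin ligase, were lower too (-2.43 and -1.58). Reads of such copies can be split or shared in counting, so these values are uncertain as to which copy they came from. Unstimulated cells showed the same side: Gm21887 had 11.7 RPKM in BAFF KO and 152 RPKM in WT, and Gm47283 had 2.19 RPKM in BAFF KO and 47.6 RPKM in WT. The neighbouring genes Hccs, Msl3 and Arhgap6 were not called (0.10, 0.01 and -0.16). Mid1 and these neighbours were named after their values were seen.

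Whether a gene differed because LPS changed it by another amount was asked with the difference of LPS responses, the change from unstimulated to LPS in BAFF KO minus that in WT. Of 9934 genes tested, 44 (0.443%) were called, 22 with a difference above 0 and 22 with one below 0. The sign compares signed changes and does not say in which genotype the change was larger. The unstimulated arms hold 1 library each and were assumed to vary like the other groups. Il1b rose by 5.40 on the log2 scale with LPS in BAFF KO and by 7.37 in WT, so the induction was smaller by 1.97. Mt2 changed by 0.06 in BAFF KO and by 3.31 in WT. Mmp13 (3.62 in BAFF KO and 5.39 in WT), Edn1 (3.87 in BAFF KO and 5.58 in WT) and U90926 (2.61 in BAFF KO and 5.93 in WT) were induced less as well. Id1 changed by -1.83 in BAFF KO and by 0.63 in WT. The differences above 0 included those of Cxcl9 (6.70 in BAFF KO and 5.11 in WT), Il12b (6.43 in BAFF KO and 4.54 in WT) and Irf1 (4.30 in BAFF KO and 3.36 in WT). Mylip changed by 0.40 in BAFF KO and by -1.41 in WT, and Wee1 by 0.66 in BAFF KO and by -1.63 in WT. The count depended on single libraries: 16 were called without library 14, 7 without library 15, 3 without library 18 and 0 in limma without library 17, where 2085 of 9934 had an unadjusted p below 0.05.

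**Figure D4:**
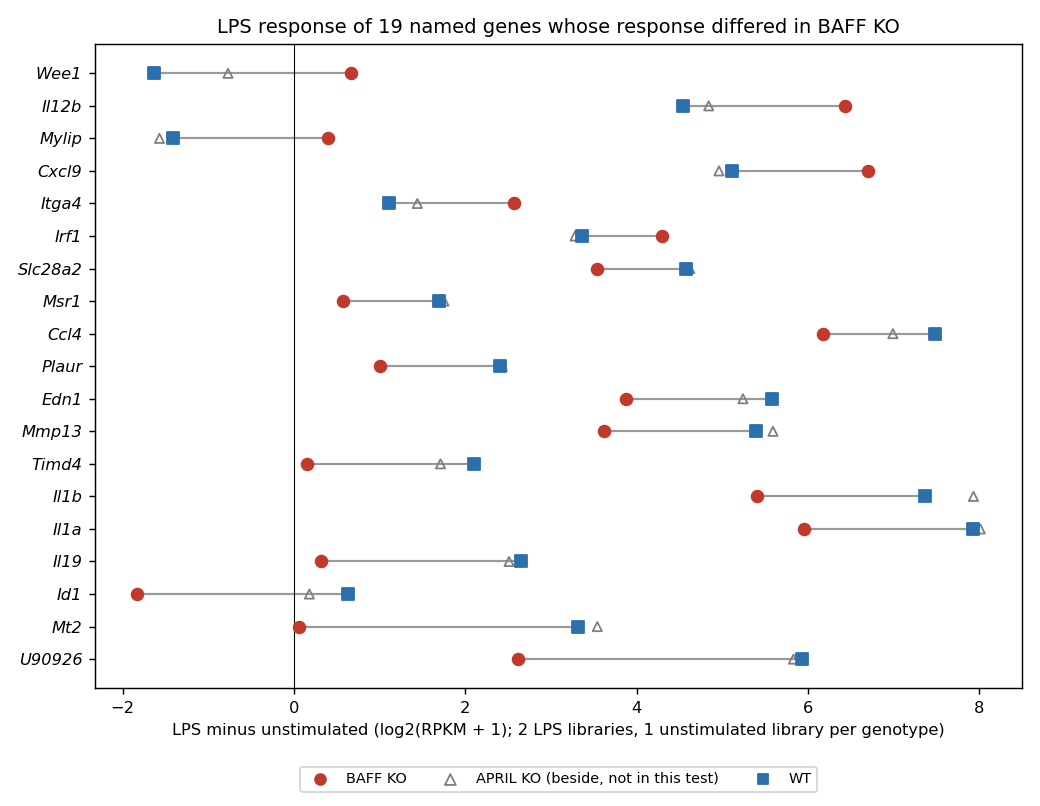
Change with LPS on the log2(RPKM + 1) scale (horizontal axis, LPS minus unstimulated) for the 19 named genes called for a different response, 1 gene a row. Red circles are BAFF KO, blue squares WT and open triangles APRIL KO, and a line joins BAFF KO and WT. APRIL KO was not in the difference tested, but its libraries were in the fit that gave the spread. In the lower 13 rows, among them Il1b and Mt2, the circle lies left of the square, and in the upper 6, among them Cxcl9 and Il12b, right of it.

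Libraries outside the comparison give the called genes a second view, though the APRIL KO libraries with LPS also entered the spread in the fit. In unstimulated cells, 90 of the 432 genes called lower (20.8%) were lower in BAFF KO by at least 1.5-fold, against 6.88% of all genes tested. Of the 396 genes called higher 48 (12.1%) were higher there by at least 1.5-fold, against 3.05% of all. These are 1 library each, with no test. Called genes also stood at higher levels than all genes tested. The median in WT with LPS was 29.3 RPKM for those called lower, 13 RPKM for those called higher and 6.13 RPKM for all. The shares here and in APRIL KO below were not matched for level, and the scale understates changes of low genes. In APRIL KO macrophages, LPS raised 126 of the genes called lower (29.2%) by at least 2-fold and 79 of those called higher (19.9%), against 8.66% of all genes. It lowered 28 of the genes called lower (6.48%) and 82 of those called higher (20.7%) by as much, against 1891 of all 9934 (19%). With LPS, APRIL KO libraries had 2269 and 2549 RPKM of Il1b and 309 and 422 RPKM of Mt2. The APRIL KO level of Cxcl9 was 33.1 and 35.3 RPKM, and that of Mertk 23.2 and 25.8 RPKM. These 4 lie nearer to the WT than to the BAFF KO level given above, while Marco lies nearer to BAFF KO, at 182 and 146 RPKM in APRIL KO. Over the 828 called genes, the APRIL KO mean with LPS on the log2 scale was nearer to BAFF KO for 218 (26.3%) and nearer to WT for 610 (73.7%). The same shares over all genes tested were not computed, so these cannot be read as particular to the called genes.

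Some marker lists of other cells differed between the groups. Neutrophil and granule genes summed to 2774 and 2394 RPKM in BAFF KO and 1401 and 1768 RPKM in WT, with 7 of 16 tested higher and none of the 16 lower. Elane, the neutrophil elastase gene, had 8.58 and 10.9 RPKM in BAFF KO and 4.11 and 3.84 RPKM in WT (1.10, adjusted p = 0.0057), and Ly6g was not listed. Without library 14, 15, 17 or 18 the list had 4, 9, 3 and 3 calls. Skeletal muscle genes summed to 68.9 and 91.5 RPKM in BAFF KO and 497 and 345 RPKM in WT, with 17 of 22 lower and none of the 22 higher. Without library 14, 15, 17 or 18 these had 10, 17, 7 and 8 calls. Myog, a master factor of muscle differentiation, rested on 4 reads in BAFF KO and 76 reads in WT (-2.10, adjusted p = 0.0036). Both sets stood on the same side in unstimulated cells: neutrophil genes at 5956 RPKM in BAFF KO and 3186 RPKM in WT, muscle genes at 66.4 RPKM in BAFF KO and 357 RPKM in WT. The APRIL KO libraries with LPS had 50.3 and 107 RPKM of muscle genes, near BAFF KO, and 1658 and 1701 RPKM of neutrophil genes, near WT. Fibroblast and stroma genes summed to 20.7 and 103 RPKM in BAFF KO and 319 and 105 RPKM in WT, and none of 11 was called in limma, where 2508 of all genes had an unadjusted p below 0.05. Monocyte genes summed to 306 and 401 RPKM in BAFF KO and 189 and 268 RPKM in WT (2 of 8 higher). Their median difference was only 0.04, with 4 members above 0 and 4 below. Most of the gap in the sums lay in Ly6c2. It had 180.3, 199, 252 and 261 RPKM in the BAFF KO columns and 80.5, 81.1, 133 and 130 RPKM in the WT columns. Every listed marker had reads in the 4 libraries, and the part of these cells in the gene differences was not tested. Scaling to a total without the muscle genes gave 833 calls. This changed only the scale of the values. The muscle genes stayed in the test, and the part of muscle RNA was not tested by it.

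**Figure D5:**
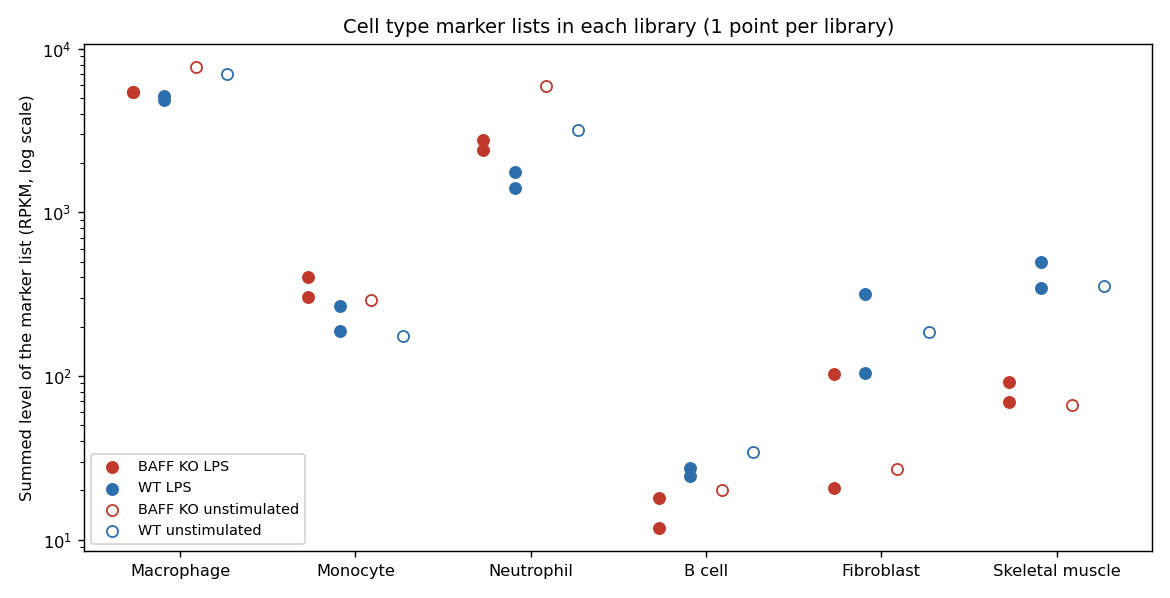
Summed RPKM of marker genes (log scale) in each library, with 1 point per library, red for BAFF KO and blue for WT, open without and filled with LPS. Neutrophil markers are higher and muscle markers lower in BAFF KO, with and without LPS. The sums of the macrophage markers with LPS lie between 4882 and 5420 RPKM, though 2 of these 10 genes were called higher and 2 lower.

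Called genes were spread over the genome, with a share of 3.92% on chromosome Y to 10.9% on chromosome 3.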

How the data were processed

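RNA from cultured macrophages was sequenced as single reads. The submitters' processing notes name STAR and the build mm10. How reads were counted or filtered, and with which annotation, is not given in the sources used here. Values were deposited by the authors in RPKM for 11164 genes in 18 columns, 2 for each of 9 libraries, and every column was used. Its values are whole multiples of 1 read per gene within 0.01 for 100% of values, after 1 read that was added to each count, and read numbers above come from this. The labels name a directional and a TruSeq kit, so strand is unclear, and overlapping or antisense genes cannot be told apart. Symbols came from GENCODE M21 for 11084 IDs, and 80 had none.

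The 2 columns of a library were averaged. limma 3.58.1 in R 4.3.3 (trend, 2-sided) was fitted to log2(RPKM + 1) over 6 group means with 3 residual degrees of freedom and Benjamini-Hochberg adjustment over 9934 genes. Depth was 5121833 to 6020780 reads in the 4 LPS libraries; median residual SD was 0.15. Scripts were tested on simulated data. Named genes were the 15 largest rises and falls with separate columns and at least 5 RPKM, outside the muscle and stroma marker lists, the 8 most abundant called in each direction, and up to 2 rises and 2 falls per list. Tnf, Il6, Nos2 and Cxcl10 were added outside this rule, and the count of 184 named genes includes them. The comparison and lists were chosen with earlier results of these data known. A few genes of the lists are counted but not reported by name here.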

Additional observations from a re-analysis of the deposited data

Results flagged for a closer look

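The LPS response, which is the log2 change from unstimulated to LPS, differed between BAFF KO and WT in 19 of the named genes by limma's test of the difference itself. Each value is the response in BAFF KO minus that in WT. The sign is that of the difference and not the size of either response. The value was below 0 for U90926 (-3.31), Mt2 (-3.25), Id1 (-2.45), Il19 (-2.34), Il1a (-1.98), Il1b (-1.97), Timd4 (-1.95), Mmp13 (-1.77), Edn1 (-1.71), Plaur (-1.40), Ccl4 (-1.30), Msr1 (-1.11) and the nucleoside transporter gene Slc28a2 (-1.03). The value was above 0 for Wee1 (2.29), Il12b (1.88), Mylip (1.80), Cxcl9 (1.60), Itga4 (1.46) and Irf1 (0.94). The APRIL KO response was 3.54 for Mt2, where BAFF KO had 0.06 and WT 3.31, and 4.96 for Cxcl9, where BAFF KO had 6.70 and WT 5.11.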

How the results depend on the processing

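The 828 calls between BAFF KO and WT with LPS became 2706 with columns as separate samples, 227 with the lower-numbered column of each library alone, 173 at a fold of at least 2 and 215 to 333 without 1 library. The 44 calls on the LPS response became 15 with no filter, 99 with a minimum of 5 RPKM, 70 with quantile normalization, 2193 with columns as separate samples, 2 and 26 with the lower-numbered or higher-numbered column alone, 24 with only WT and BAFF KO libraries, 15 with the replicate block and 0 to 16 without 1 library. The cause was not tested. The other settings gave 564 to 926 calls in the first comparison. Quantile normalization gave 445 higher and 411 lower. None of the named genes reversed under these settings; the crossed pairing was not run per gene, and 5 of the 173 called ones were not tested at the minimum of 5 RPKM. Replicate numbers did not pair the libraries (correlation of deviations -0.18 for BAFF KO and WT, -0.102 for APRIL KO and WT, 0.12 for BAFF KO and APRIL KO). The replicate block gave 564 and 15 calls, with 134 of 173 called named genes still called, and the crossed pairing, chosen after seeing the data, 926 and 59. With 2 libraries a group and 3 residual degrees of freedom, differences near the spread between libraries were not detectable.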

Other observations

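Several genes outside the lists and the naming rule differed with LPS over all libraries and in each fit without 1 LPS library of BAFF KO or WT; they were chosen after their values were seen. Among those lower in BAFF KO, Sema4c, a semaphorin gene, had 2.01 and 2.68 RPKM in BAFF KO and 13.4 and 12.1 RPKM in WT (-2.05, adjusted p = 0.0011 in limma). Kcnn4, a calcium-activated potassium channel gene, had 41.9 and 33.1 RPKM in BAFF KO and 112 and 113 RPKM in WT (-1.57, adjusted p = 0.00054). Alas1, given above with the heme genes, had 32.4 and 33.5 RPKM in BAFF KO and 77.8 and 92.1 RPKM in WT (-1.34, adjusted p = 0.00075). Pdpn, the gene of podoplanin, was at -1.69 and Npy, the neuropeptide Y gene, at -1.0.

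Among those higher in BAFF KO, Xdh, the xanthine dehydrogenase gene, had 157 and 169.8 RPKM in BAFF KO and 72.5 and 75.4 RPKM in WT (1.13, adjusted p = 0.0018). Sgk1, a serum- and glucocorticoid-regulated kinase gene, had 53 and 64.3 RPKM in BAFF KO and 28.7 and 22.9 RPKM in WT (1.16, adjusted p = 0.0032). Dapk1, a death-associated protein kinase gene, was at 1.23 and Prex1, a Rac exchange factor gene, at 1.13.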
